A study of Homo sapiens with 12 samples.

Results

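The genes for ligand-gated receptors of glutamate, GABA, glycine and acetylcholine were described in KELLY cells, an established human neuroblastoma line with many copies of MYCN. They were chosen by gene symbol alone (GRIA, GRID, GRIK, GRIN, GABR, GLR and CHRN names), which took 59 of the 55771 genes in the deposited table. Of these, 18 belong to glutamate receptors, 19 to GABA receptors, 5 to glycine receptors and 16 to nicotinic acetylcholine receptors. The pattern also took GRINA, whose product is named for an association with NMDA receptors and is no channel subunit. It was kept as a gene without a transmitter.

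RNA-seq of total RNA after ribosomal RNA depletion covered 12 libraries in 3 groups of 4. All 12 came from cells moved to medium with 4% serum and transfected with 50 nM of a morpholino, an uncharged antisense oligonucleotide, complexed with a leash and lipid, for 48 h. The groups received a control oligonucleotide, BPS1 or BPS2, and the study asks what changes in the transcriptome when the long NEAT1 transcript and paraspeckles are raised. The columns of BPS2 were assigned by sample title, because their description field uses a different name (KPAS), and 1 BPS1 column is spelled BSP1. There was 1 cell line, and the labels do not state whether libraries of a group are separate cultures, so the p-values measure spread that may be technical.

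Ligand-gated receptors are channels that open when a transmitter binds, and each is assembled from several subunits encoded by separate genes. AMPA, kainate and NMDA receptors (4 subunits) and nicotinic receptors pass cations and excite the cell. GABA-A and glycine receptors (5 subunits, as in nicotinic receptors) pass chloride. Neuroblastoma arises from the sympathetic lineage, whose ganglion neurons carry nicotinic receptors built mainly from the CHRNA3, CHRNA5 and CHRNB4 products.

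Library depth was put at 29.1 to 31.8 M reads, from each total and the step between its low values. Control replicate 1 and BPS1 replicate 4 stood apart from the other libraries, with an SD of the deviation from each gene's median over the 12 libraries (log2 scale, 20454 genes tested) of 0.471 and 0.594 against 0.377 to 0.425 in the rest. Counts of receptor genes and of all genes that passed are given with and without them. Marker, list, class and non-overlap counts are given only with them. NEAT1, the non-coding RNA on which paraspeckles form, averaged 6879 ± 264 normalized counts (SD, n = 4) with the control oligonucleotide, 2024 ± 420 with BPS1 and 4262 ± 412 with BPS2, in a single row that does not separate its short and long transcripts. All 13 adrenergic neuroblastoma markers were tested and none was at 0. Summed, they reached 293989 to 349385 in the control libraries, 232432 to 299513 with BPS1 and 269822 to 287088 with BPS2. In BPS1 against control 6 of the 13 fell and 2 rose (61.5% passed, where 8.6% of all genes tested did), and in BPS2 2 fell (15.4%, where 1.21% of all genes passed). Their part in the receptor results was not tested. In bulk RNA, fewer cells of a kind and less RNA per cell cannot be told apart.

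Of the 59 genes, 47 reached 10 normalized counts in at least 4 libraries and were tested. The other 12 had means of 0.264 to 7.53 and no value above 15.7. They were CHRNA6, CHRNA9 and CHRNB3 of the neuronal nicotinic subunits, CHRND, CHRNE and CHRNG of the muscle receptor, GABRB1, GABRE, GABRG1 and GABRR1, GLRA2 and GRIN3B. The genes thus covered a range from near 0 to CHRNA3, whose values were 14912 to 19150.

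**Figure D1:**
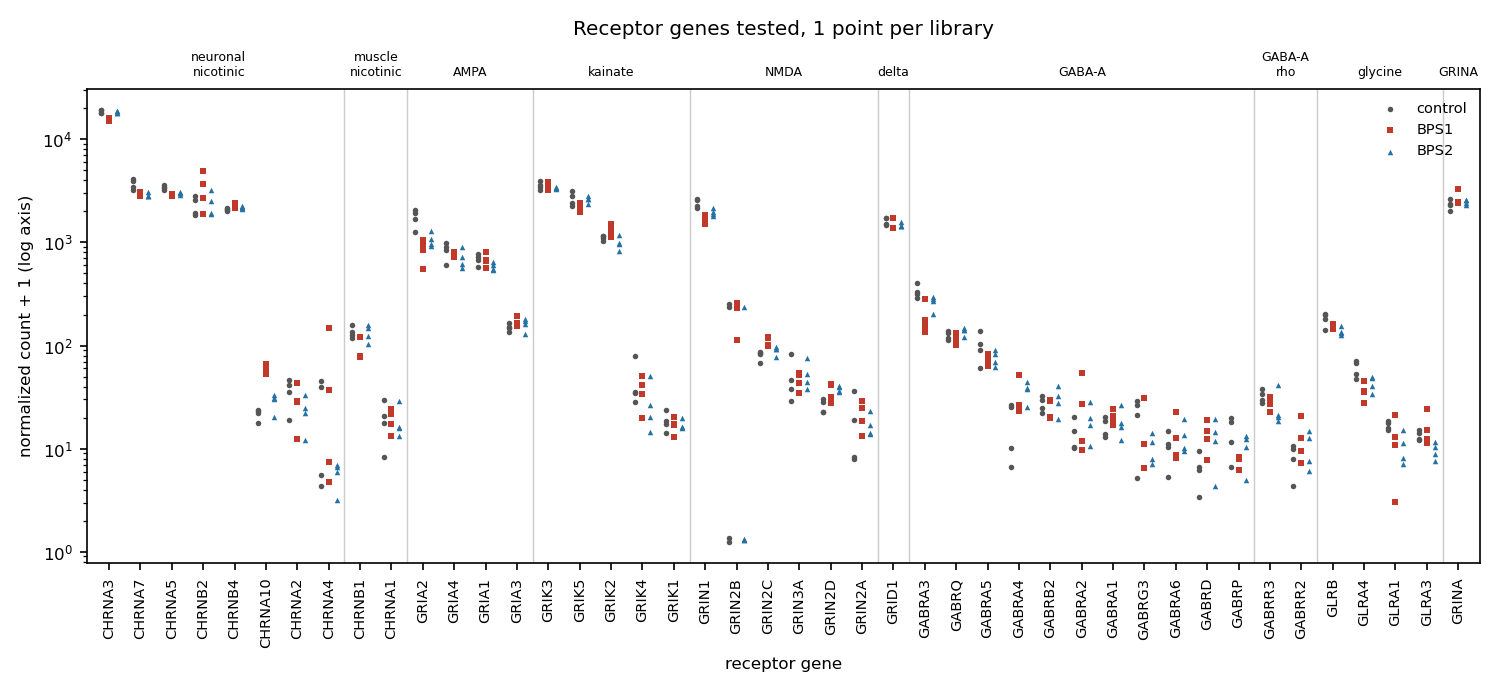
Normalized count + 1 (log axis) of 44 receptor genes tested, 1 point per library, for control (circles), BPS1 (squares) and BPS2 (triangles), ordered by receptor class and mean. CHRNA3 sits highest at 14912 to 19150, and GRIN2B has 5 libraries below 1 beside 7 libraries above 100.

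Levels between genes were compared per kilobase of the longest annotated transcript. On that scale CHRNA3 was first with a mean level of 5498 per kb over the 12 libraries, followed by GRINA (1261), CHRNA5 (857), CHRNB4 (842) and GRIK5 (709). Of the per-kilobase level of all transmitter classes, acetylcholine receptor genes made up 69.0% ± 1.19 (SD, n = 4) in control, 70.2% ± 2.23 in BPS1 and 71.6% ± 0.943 in BPS2. Glutamate receptor genes made up 22.6% ± 0.813, 21.7% ± 0.972 and 21.3% ± 0.125. GABA receptor genes took 7.64% ± 1.15, 7.39% ± 1.58 and 6.49% ± 1.09, and glycine receptor genes 0.824% ± 0.0555, 0.711% ± 0.0445 and 0.653% ± 0.0756. The order of the 4 transmitters was therefore the same in each group, also with median transcript lengths (71.5%, 73.9% and 74.9% for acetylcholine). The order of single genes depended on the transcript length used: with the median length, CHRNA7 moved from rank 8 to rank 3 and GRIA2 from rank 13 to rank 5.

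In BPS1 against control, 8 of the 47 genes passed (limma, a two-sided test at 0.05 after Benjamini-Hochberg adjustment across the 20454 genes tested). One rose, CHRNA10, and 7 fell: GRIN1, GRIA2, CHRNA3, GABRA3, CHRNA5, CHRNA7 and GLRA4. This is 17.0% of the receptor genes tested, where 8.6% of all genes passed, 4.29% higher and 4.32% lower. No test of that difference was made. The median log2 fold change was -0.11 over the 47 genes and near 0 over all genes, with 22 of the 47 above 0 and 25 below. Values of 7 receptor genes lay wholly below control in BPS1 and those of 2 wholly above (CHRNA10 and GRIN2C), beside 6.81% lower and 7.5% higher over all genes. Genes with a mean of at least 100 gave 6 of the 7 falls.

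In BPS2 against control, 0 of the 47 genes passed, where 1.21% of all genes did, 0.821% higher and 0.386% lower. By limma, the lowest adjusted p was 0.0616, for CHRNA7. GRIN1, CHRNA5, CHRNA7 and GLRA3 lay wholly below control and GRIN2D wholly above, beside 4.23% and 5.41% of all genes. In BPS2 against BPS1, 3 of 47 passed, where 3.93% of all genes did (2.3% higher, 1.63% lower): CHRNA3 was higher in BPS2, and CHRNA10 and GRIK2 were lower. CHRNA3 lay wholly above BPS1, and CHRNA10 and GRIN2C wholly below, beside 6.08% and 5.8% of all genes. The comparisons share libraries and are not independent. With control 1 and BPS1 4 left out, 10 genes passed in BPS1 against control, 4 in BPS2 against control (CHRNA7, GLRB and GRIA2 among them) and 9 in BPS2 against BPS1. Over all genes, 1760, 247 and 803 passed in the 3 comparisons with every library kept, and 2772, 1923 and 3498 with both left out. Without BPS1 4 alone, 13, 2 and 4 receptor genes passed, beside 2359, 535 and 1756 of all genes. Without control 1 alone, 6, 1 and 3 receptor genes passed. Leaving out control 2, control 3, BPS1 1 or BPS1 2 gave 5 in BPS1 against control, and leaving out BPS1 3 gave 4. In BPS2 against BPS1, 1 receptor gene (CHRNA10) passed without BPS1 1, BPS1 3, BPS2 2, BPS2 3 or BPS2 4. Over all genes, omission of 1 library gave 1103 (without control 2) to 2359 in BPS1 against control. It gave 113 (without BPS2 3) to 535 in BPS2 against control, and 471 (without BPS1 3) to 1756 in BPS2 against BPS1. Each highest count was that without BPS1 4.

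**Figure D2:**
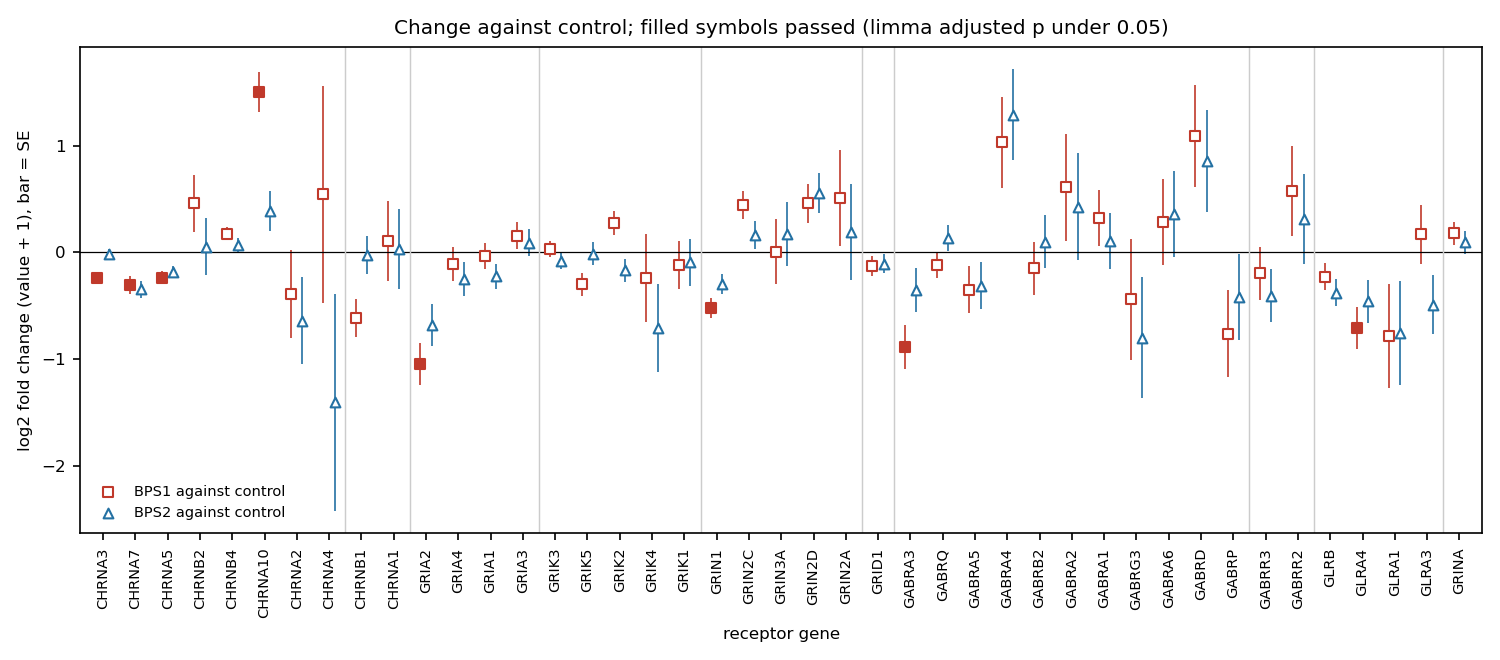
Log2 fold change on the log2(value + 1) scale, with the standard error of the limma fit as bars, for BPS1 (squares) and BPS2 (triangles) against control in 43 receptor genes (GRIN2B is left off because its standard error is 1.98). Filled symbols passed: 8 in BPS1, of which only CHRNA10 lies above 0, and none in BPS2.

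Acetylcholine receptor genes gave 4 of the 8 calls in BPS1 (1 rose, 3 fell, of 10 tested). This is 40% of those tested, where 8.6% of all genes passed. No class was tested against that share. CHRNA10 encodes a nicotinic subunit known from cochlear hair cells, where it assembles with the CHRNA9 product. Its normalized counts were 21.0, 21.9, 22.6 and 16.9 in control, 64.6, 63.4, 52.6 and 59.7 in BPS1, and 19.4, 29.1, 32.0 and 29.7 in BPS2. Every BPS1 library was above all others, while BPS2 overlapped control. CHRNA10 changed on the log2 scale by 1.50 ± 0.18 (SE; adjusted p = 3.33e-04 by limma) in BPS1, 0.39 ± 0.18 (adjusted p = 0.460) in BPS2, and -1.12 ± 0.18 (adjusted p = 0.00432) in BPS2 against BPS1. CHRNA10 passed in BPS1 against control, and in BPS2 against BPS1, under each of 24 alternative settings. CHRNA9 was among the genes too low to test. CHRNA10 shares 133 exon bases on the same strand with NUP98, a nuclear pore gene, and 5.38% of its 31-base words, so how reads were divided is uncertain. NUP98 itself had 3022 ± 306, 3452 ± 492 and 2990 ± 213 (log2 fold change 0.18 in BPS1, adjusted p = 0.351).

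Sequence upstream of the start is shown for the genes that passed and whose RefSeq window (GRCh38.p14) holds at least 100 bases outside annotated exons, which the CHRNA3 windows do not: CHRNA10, the gene that rose, and CHRNA7, GRIA2 and GRIK2. Capitals mark the GC box GGGCGG and the EGR1 motif GCGNGGGCG, on the strand shown or the other.
CHRNA10, chr11:3671417-3671634, minus strand: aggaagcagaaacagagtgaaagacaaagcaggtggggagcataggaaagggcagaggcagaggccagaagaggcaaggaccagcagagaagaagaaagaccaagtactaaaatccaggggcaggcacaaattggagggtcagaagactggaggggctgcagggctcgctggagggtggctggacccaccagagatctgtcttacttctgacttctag
CHRNA7, chr15:32030233-32030461, plus strand: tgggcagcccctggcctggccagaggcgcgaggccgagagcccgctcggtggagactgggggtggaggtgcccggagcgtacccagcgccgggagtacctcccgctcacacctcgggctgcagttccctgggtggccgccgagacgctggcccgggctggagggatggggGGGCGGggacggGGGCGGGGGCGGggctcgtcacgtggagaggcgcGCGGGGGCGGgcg
GRIA2, chr4:157220369-157220618, plus strand: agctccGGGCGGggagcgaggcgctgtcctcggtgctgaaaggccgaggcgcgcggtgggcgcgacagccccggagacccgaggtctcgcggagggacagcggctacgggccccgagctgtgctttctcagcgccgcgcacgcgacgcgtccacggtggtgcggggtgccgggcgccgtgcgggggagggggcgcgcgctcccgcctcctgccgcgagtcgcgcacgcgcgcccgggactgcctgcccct
GRIK2, chr6:101393458-101393707, plus strand: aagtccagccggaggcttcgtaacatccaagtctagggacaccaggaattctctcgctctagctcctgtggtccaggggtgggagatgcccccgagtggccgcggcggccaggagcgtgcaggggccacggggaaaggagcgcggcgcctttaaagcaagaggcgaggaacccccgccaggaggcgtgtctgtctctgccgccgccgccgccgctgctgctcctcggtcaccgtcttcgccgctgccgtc
The CHRNA10 stretch has 54.1% GC and none of the motifs. The CHRNA7 stretch has 78.6% GC with 4 GC boxes and 2 EGR1 matches, which overlap the boxes. The GRIA2 stretch (78.8% GC) has 1 GC box, and the GRIK2 stretch (68.0% GC) has none. The windows of CHRNA7, GRIA2 and GRIK2 lie inside the gene span of GENCODE release 29, so other annotated starts exist. Between the CHRNA10 stretch and the start lie 32 annotated exon bases, outside the CHRNA10 span of that release. The gene they belong to was not recorded. NUP98, on the same strand, was the only gene found to share exon bases with CHRNA10 itself. Whether the stretch acts as a promoter was not tested. Over the 250 bases upstream, a GC box was in 42.6% of 35116 windows of all genes and in 27 of 54 windows of receptor genes. The EGR1 motif was in 8.42% of all windows and in 8 of the 54 windows of receptor genes. For the AP-1 motif TGANTCA these were 6.57% and 2 of 54, and for TATAAA 10.7% and 5 of 54. The cyclic AMP element TGACGTCA was in 1.65% and in 0 of 54. A match describes letters only.

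CHRNA5, CHRNA3 and CHRNB4, the ganglionic receptor genes, lie side by side on chromosome 15 (GRCh38, 78565520 to 78727754, a span of 162 kb). CHRNA3 had 18200, 19150, 19093 and 18077 normalized counts in control, 14912, 16030, 15995 and 16204 in BPS1, and 17984, 18729, 18847 and 18050 in BPS2. BPS1 lay wholly below both other groups, which overlapped each other. It fell by 0.24 ± 0.05 on the log2 scale in BPS1 (adjusted p = 0.0107 by limma), differed by -0.02 ± 0.05 in BPS2 (adjusted p = 0.937), and was higher in BPS2 than in BPS1 by 0.22 ± 0.05 (adjusted p = 0.0261). The first call was lost without a filter and in a fit of the 2 groups alone (adjusted p = 0.0670 in the latter), and the last without BPS1 1, 2 or 3 or any single BPS2 library (adjusted p of 0.0575 to 0.0922).

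CHRNA5, an accessory subunit gene, had 3628, 3362, 3456 and 3202 in control, 2910, 2889, 2844 and 2925 in BPS1, and 2893, 3059, 3026 and 3046 in BPS2. All libraries of both treated groups were below all control libraries. The log2 fold change was -0.24 ± 0.06 in BPS1 (adjusted p = 0.0234 by limma) and -0.18 ± 0.06 in BPS2 (adjusted p = 0.202). The call in BPS1 was lost without control 1, 2 or 3 or BPS1 2 or 3 (adjusted p of 0.0505 to 0.0659). CHRNB4, the beta subunit gene of the cluster, had 2084, 2353 and 2185 on average, and its log2 fold changes of 0.17 ± 0.06 in BPS1 (adjusted p = 0.109) and 0.07 ± 0.06 in BPS2 (adjusted p = 0.753) did not pass. Its BPS1 libraries, at 2166 to 2425, were not below control, at 1999 to 2170. CHRNA3 and CHRNA5 overlap by 198 exon bases on opposite strands, and whether counting used strand is not given in the sources used here.

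CHRNA7, whose product can form a receptor by itself, had 3233, 3978, 3438 and 4128 in control, 3034, 2997, 2808 and 3060 in BPS1, and 2846, 2851, 2810 and 3059 in BPS2. Both treated groups lay below control and overlapped each other. Its log2 fold changes were -0.31 ± 0.08 in BPS1 (adjusted p = 0.0334 by limma) and -0.35 ± 0.08 in BPS2 (adjusted p = 0.0616), and the difference between the treated groups was -0.04 ± 0.08 (adjusted p = 0.867). The call in BPS1 was lost without control 2 or 4, BPS1 1, 2 or 3, or BPS2 2 (adjusted p of 0.0506 to 0.103). Of the 31-base words in the longest CHRNA7 transcript (7722 bases), 6.98% are shared with other genes, most with CHRFAM7A, a partial copy fused to another gene. The median coding transcript has 1139 bases, and the share in such shorter transcripts, which can differ, was not counted. The CHRFAM7A row had 1222 ± 171, 871 ± 137 and 940 ± 138 normalized counts, and its log2 fold changes of -0.49 in BPS1 (adjusted p = 0.0507) and -0.38 in BPS2 (adjusted p = 0.307) did not pass. How reads were divided between these rows is uncertain.

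The remaining nicotinic genes did not pass in any comparison. CHRNB2, the main beta subunit gene of brain receptors, spread from 1876 to 4945 in BPS1 alone, with 1826 to 2829 in control. CHRNB1, a muscle subunit gene, had 118 to 158 in control, 76.6 to 120 in BPS1 and 102 to 158 in BPS2, with a log2 fold change of -0.62 ± 0.18 in BPS1 (adjusted p = 0.0507 by limma). The first 3 of its BPS1 libraries were below 78 and BPS1 4 was at 120. CHRNB1 shares 17.2% of its 31-base words with other annotated genes. CHRNA1, the alpha subunit gene of muscle, was at 7.35 to 28.5, and of 10 skeletal muscle markers 3 were tested and none passed. Their summed level was 472 to 757 in control, 626 to 943 in BPS1 and 592 to 1061 in BPS2. Within the neuronal nicotinic genes, CHRNA3 took 68.9% ± 1.29, 64.7% ± 1.17 and 69.9% ± 1.35 of the level per kilobase in control, BPS1 and BPS2. With median transcript lengths the means were 51.3%, 49.6% and 54.4%, so the gap between control and BPS1 was smaller on that scale.

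**Figure D3:**
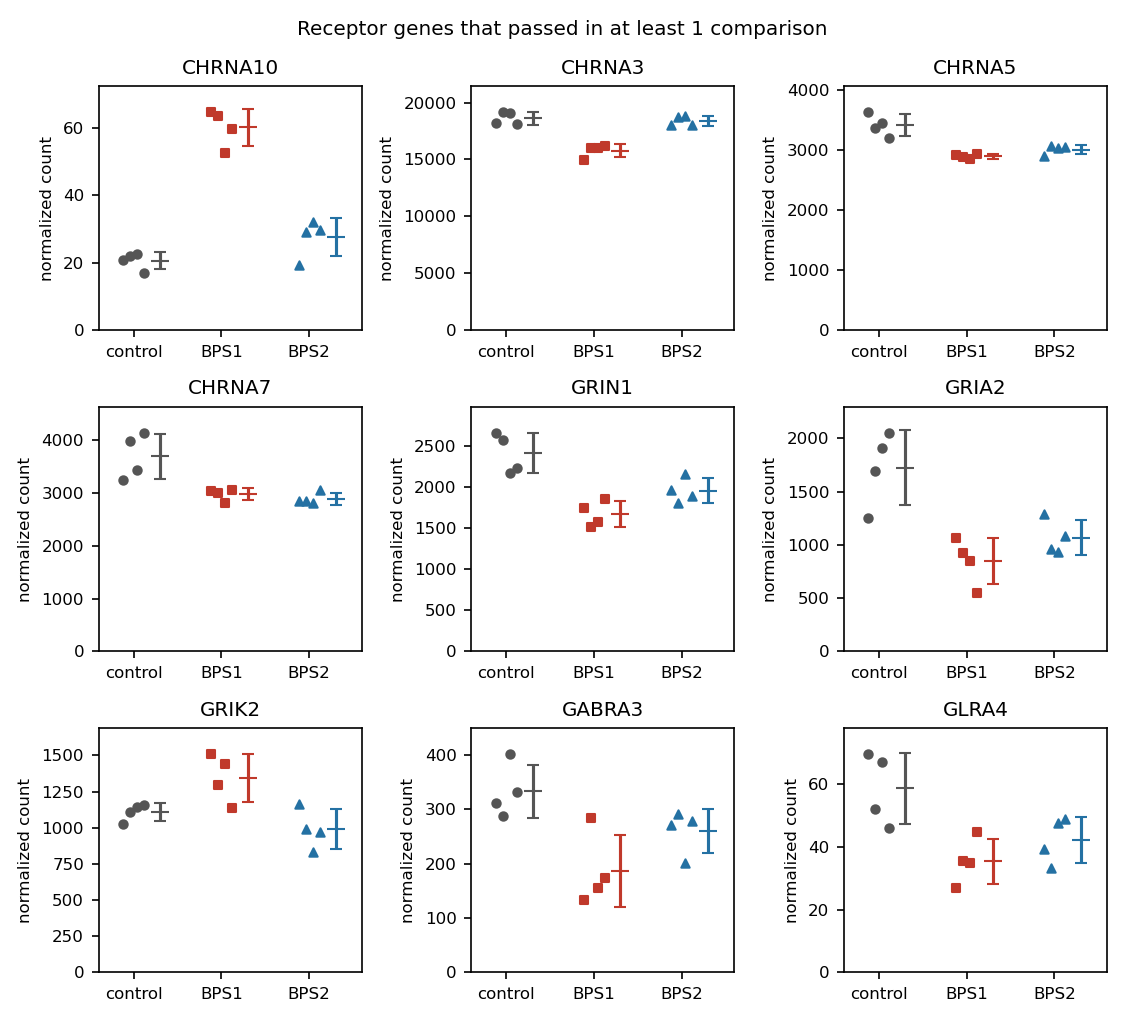
Normalized counts of the 9 receptor genes that passed in at least 1 comparison, 1 point per library, with the mean (dash) and SD (bar) of each group beside them (n = 4; axes start at 0 and differ between panels). In CHRNA10 the BPS1 libraries (52.6 to 64.6) lie above all others, and in the other panels except GRIK2 the BPS1 libraries lie below all control libraries.

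Among glutamate receptor genes, 2 of 17 tested fell in BPS1 and none rose (11.8% passed, where 8.6% of all genes did and 4.32% fell). GRIN1 encodes the subunit that every NMDA receptor needs. Its values were 2660, 2582, 2179 and 2235 in control, 1751, 1520, 1579 and 1853 in BPS1, and 1970, 1806, 2160 and 1893 in BPS2. Both treated groups were wholly below control, and they overlapped each other. GRIN1 gave a log2 fold change of -0.53 ± 0.09 in BPS1 (adjusted p = 0.00373 by limma) and -0.30 ± 0.09 in BPS2 (adjusted p = 0.187). The call in BPS1 held under each of 24 alternative settings.

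The NMDA subunit genes that set channel properties, GRIN2A to GRIN2D, did not pass. GRIN2C had 66.5 to 85.3 in control and 97.9 to 119 in BPS1 without overlap (log2 fold change 0.45 ± 0.13, adjusted p = 0.0511 by limma). GRIN2D had 21.5 to 29.5 in control, 26.5 to 41.8 in BPS1 and 34.7 to 39.6 in BPS2, with a log2 fold change of 0.56 ± 0.19 in BPS2 (adjusted p = 0.230). GRIN1 took 94.2% ± 1.03, 89.7% ± 1.33 and 92.5% ± 1.00 of the per-kilobase level of NMDA genes in control, BPS1 and BPS2, and GRIN2C took a mean of 2.45% in control and 3.31% in BPS2, with BPS1 above both. With median transcript lengths the GRIN1 means were 77.9%, 59.7% and 83.3%, so the order of control and BPS2 turned, while GRIN2B took 17.3%, 33.5% and 9.53%. The GRIN1 share therefore depends on the length chosen and on GRIN2B, whose values are given next.

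GRIN2B had the widest spread within groups of the 47 genes and was singled out after its values were seen. Its normalized counts were 0.254, 236, 0.355 and 250 in control, 112, 112, 232 and 260 in BPS1, and 236, 0.312, 0.306 and 0.324 in BPS2. It thus lay below 1 in 5 libraries, near 112 in 2 and above 232 in 5, with no level between. Each of these bands but the middle one held libraries of more than 1 group. The log2 fold change in BPS1 was 3.23 ± 1.98 (adjusted p = 0.374 by limma). CHRNA4, also singled out after its values were seen, ranged from 2.20 to 146, with 38.4, 3.38, 4.53 and 44.2 in control. The longest GRIN2B transcript has 30355 bases, and GRIN2B was not in whole multiples of 1 read in these libraries. Whether the low values are failed estimates was not tested.

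GRIA2 encodes the AMPA subunit that, after RNA editing, makes the channel nearly impermeable to calcium. Its values were 1252, 1690, 1913 and 2048 in control, 1061, 922, 847 and 550 in BPS1, and 1289, 958, 931 and 1084 in BPS2. BPS1 was wholly below control, while BPS2 overlapped control through a single pair of libraries, control 1 and BPS2 1. GRIA2 gave a log2 fold change of -1.04 ± 0.20 in BPS1 (adjusted p = 0.00581 by limma, held under each of 24 settings) and -0.68 ± 0.20 in BPS2 (adjusted p = 0.157). In BPS2 it passed in 3 of the 24 settings, those with library weights, without BPS1 4, and with control 1 and BPS1 4 both left out.

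The other AMPA genes did not pass: GRIA1, GRIA3 and GRIA4 had log2 fold changes of -0.03 ± 0.12, 0.16 ± 0.13 and -0.11 ± 0.16 in BPS1. GRIA2 therefore took a smaller share of the AMPA level per kilobase in BPS1. Its share was 48.2%, 49.8%, 50.9% and 53.1% in control, 40.5%, 34.3%, 34.4% and 27.2% in BPS1, and 47.0%, 37.1%, 43.0% and 42.1% in BPS2, with no overlap between control and either treated group. The means were 50.5% ± 2.04, 34.1% ± 5.45 and 42.3% ± 4.08. With median transcript lengths the means were 79.6%, 66.2% and 73.6%, so the level of the share depends on the length chosen and its order over the groups did not. The editing enzymes ADAR and ADARB1, of which ADARB1 edits GRIA2 RNA, had log2 fold changes of -0.04 ± 0.10 and -0.13 ± 0.24 in BPS1 and did not pass.

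**Figure D4:**
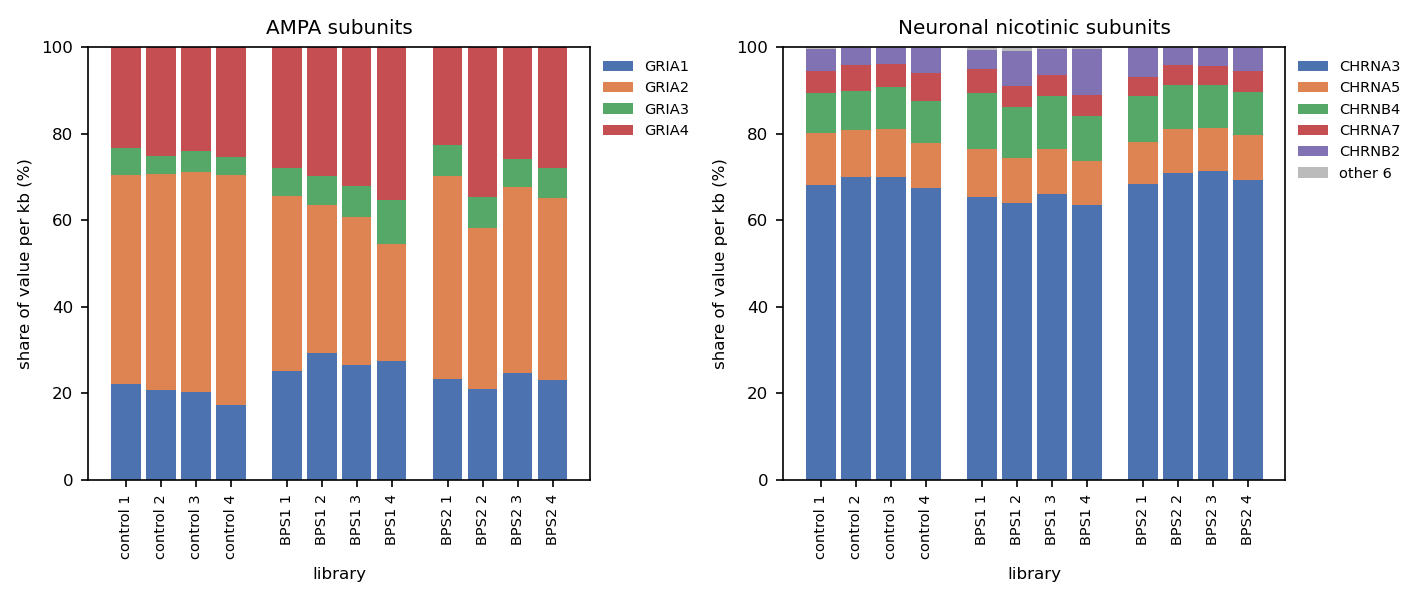
Share of the level per kilobase (longest transcript) that each subunit gene took within the AMPA genes (left) and the neuronal nicotinic genes (right), 1 stacked bar per library. GRIA2 runs from 48.2% to 53.1% in control and from 27.2% to 40.5% in BPS1, while CHRNA3 takes most of every nicotinic bar.

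Of 5 kainate receptor genes tested, GRIK2 differed between the treated groups and none passed against control. GRIK2 had 1023, 1108, 1143 and 1160 in control, 1509, 1297, 1444 and 1137 in BPS1, and 1167, 992, 834 and 974 in BPS2. Of the BPS1 libraries, 3 were above all others, and the fourth lay among control and below BPS2 1. GRIK2 gave a log2 fold change of 0.27 ± 0.11 in BPS1 (adjusted p = 0.160 by limma), -0.17 ± 0.11 in BPS2 (adjusted p = 0.623) and -0.44 ± 0.11 in BPS2 against BPS1 (adjusted p = 0.0430). That call was lost without control 2, 3 or 4, BPS1 1, 2 or 3, or BPS2 2, 3 or 4 (adjusted p of 0.0570 to 0.129).

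GRIK5, a high-affinity kainate subunit gene, had 3173, 2426, 2254 and 2797 in control, 2175, 2041, 1956 and 2422 in BPS1, and 2377, 2650, 2801 and 2661 in BPS2. All groups overlapped, and its log2 fold change of -0.30 ± 0.11 in BPS1 did not pass (adjusted p = 0.107). GRIK3 had 3203, 3595, 3474 and 3961 in control, 3853, 3666, 3776 and 3217 in BPS1, and 3417, 3335, 3384 and 3308 in BPS2. Its groups overlapped as well, with log2 fold changes of 0.03 ± 0.08 and -0.08 ± 0.08 that did not pass. GRIK5 took 54.6%, 47.4% and 56.4% of the kainate level per kilobase in control, BPS1 and BPS2, and GRIK2 took 16.3%, 21.1% and 15.2%. The delta receptor gene GRID1 (1367 to 1725) did not pass.

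Of 15 GABA receptor genes tested, 1 fell in BPS1 and none rose (6.67% passed, where 8.6% of all genes did and 4.32% fell). GABRA3, an alpha subunit gene, had 312, 288, 402 and 332 in control, 133, 283, 155 and 174 in BPS1, and 271, 292, 201 and 279 in BPS2. BPS1 lay below control, by a small margin in BPS1 2, and BPS2 overlapped both. The log2 fold change was -0.88 ± 0.21 in BPS1 (adjusted p = 0.0190 by limma) and -0.36 ± 0.21 in BPS2 (adjusted p = 0.563). The call was lost without control 3, BPS1 1 or BPS1 3 (adjusted p of 0.0506 to 0.0606).

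GABRQ, the theta subunit gene, had 137, 112, 118 and 132 in control, 131, 100.6, 123 and 107 in BPS1, and 141, 142, 119 and 147 in BPS2, with overlapping groups. None of the other GABA receptor genes described here passed in any comparison; GABRA5, for example, had 59.2 to 137 in control, 62.9 to 81.7 in BPS1 and 60.5 to 89.5 in BPS2.

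Of 4 glycine receptor genes tested, GLRA4 fell in BPS1 and none rose (25% passed, where 8.6% of all genes did and 4.32% fell). In humans GLRA4 is thought not to yield a working subunit. It had 69.5, 52.2, 66.9 and 45.9 in control, 27.0, 35.5, 34.7 and 44.6 in BPS1, and 39.4, 33.1, 47.6 and 48.9 in BPS2. BPS1 lay below control by a narrow gap, and BPS2 overlapped both. The log2 fold change was -0.71 ± 0.20 in BPS1 (adjusted p = 0.0444 by limma) and -0.46 ± 0.20 in BPS2 (adjusted p = 0.399). Of the 8 calls it was lost under the most omissions, namely of control 1, 2 or 3, BPS1 1, 2 or 3, or BPS2 1, 3 or 4 (adjusted p of 0.0559 to 0.122). GLRB, the beta subunit gene that anchors glycine receptors at synapses, had 140, 201, 198 and 179 in control, 158, 160, 145 and 144 in BPS1, and 127, 134, 132 and 155 in BPS2. Its groups overlapped, with log2 fold changes of -0.23 ± 0.13 and -0.38 ± 0.13 that did not pass. GLRA1, the main adult alpha subunit gene, had 14.1, 16.8, 14.8 and 17.7 in control, 20.3, 11.9, 2.01 and 9.81 in BPS1, and 7.10, 10.2, 6.04 and 14.2 in BPS2. It was low in every library and did not pass either.

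Replicates of the abundant genes were close and those of the rare genes were less so. The SD of log2 values within groups was 0.0454 to 3.34 (median 0.162) for the 22 genes with a mean of at least 100, the upper end being GRIN2B, and 0.153 to 1.69 (median 0.570) for the 25 genes below. In BPS1 CHRNA3 and CHRNA5 passed at a log2 fold change of -0.24 each, while GABRA4 at 1.03 ± 0.43, GABRD at 1.09 ± 0.48 and GLRA1 at -0.79 ± 0.49 did not. Of the 25 genes with means below 100, 2 passed in BPS1 (8%), GLRA4 and CHRNA10, and of the 22 others 6 passed (27.3%). Over all genes tested 8.6% passed. The part of level in which genes passed was not tested.

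**Figure D5:**
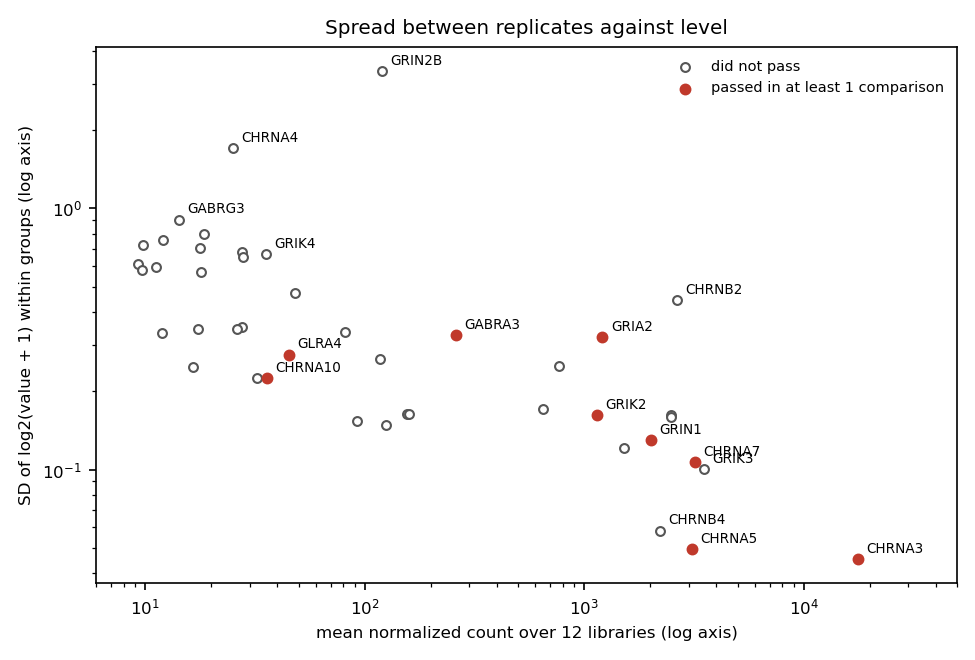
SD of log2(value + 1) within groups against the mean normalized count over 12 libraries (both axes log), 1 point for each of 44 receptor genes tested, with genes that passed in at least 1 comparison filled. The spread falls from the rare genes to CHRNA3 (0.0454), with GRIN2B (3.34) and CHRNA4 (1.69) highest.

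Genes whose products handle the receptors were listed as well, and their counts are to be read beside the shares over all genes tested: 4.29% higher and 4.32% lower in BPS1 against control, 0.821% and 0.386% in BPS2 against control, and 2.3% and 1.63% in BPS2 against BPS1. None of 14 AMPA and kainate auxiliary subunit genes tested passed in any comparison, with lowest adjusted p of 0.160, 0.145 and 0.0829 by limma. Of 22 excitatory scaffold genes, 4 fell in BPS1 (18.2%): PICK1, which binds the GRIA2 product (log2 fold change -0.45 ± 0.09), NSF, a trafficking ATPase (-0.40 ± 0.10), MPP2 (-0.29 ± 0.07) and the kinase gene CAMK2B (-0.60 ± 0.15). In BPS2 against control CAMK2B fell (-0.73 ± 0.15), and in BPS2 against BPS1 NSF was higher (0.48 ± 0.10). The median over these 22 was -0.09 in BPS1.

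Of 19 genes of the inhibitory postsynapse and receptor handling, 3 fell in BPS1 (15.8%): IQSEC3, an exchange factor of inhibitory synapses (-1.77 ± 0.17), the kinesin gene KIF5A (-0.37 ± 0.09) and NSF, which stands in both lists. IQSEC3 also fell in BPS2 (-1.96 ± 0.17). In BPS2 against BPS1, 2 rose, NSF and GABARAPL1, a GABA-A receptor trafficking gene (0.53 ± 0.13). Of 9 nicotinic chaperone genes, RIC3, which aids assembly of receptors with the CHRNA7 product, fell in BPS1 (-0.42 ± 0.11) and none passed in the other comparisons. RIC3 had 409 ± 14.3, 309 ± 48.2 and 371 ± 24.0 normalized counts.

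Of 11 genes for metabotropic receptors of the same transmitters, CHRM1, a muscarinic acetylcholine receptor gene, rose in both BPS1 (0.99 ± 0.12, adjusted p = 3.49e-04 by limma) and BPS2 (0.96 ± 0.12, adjusted p = 0.00195). Its mean normalized counts were 178 in control, 354 in BPS1 and 346 in BPS2. Of 8 other ligand-gated channel genes, the serotonin receptor gene HTR3B rose in BPS1 (1.19 ± 0.34, adjusted p = 0.0475 by limma) from 13.5 ± 5.39 to 30.4 ± 3.54. Of 18 genes for synthesis, transport and breakdown of the transmitters, 3 rose and 1 fell in BPS1 (22.2% passed, where 8.6% of all genes did). Those that rose were the glutamate transporter genes SLC1A3 (0.52 ± 0.10) and SLC1A7 (0.87 ± 0.23), and SLC18A3, the vesicular acetylcholine transporter gene (0.54 ± 0.15). GLDC, which breaks down glycine, fell in BPS1 (-0.47 ± 0.10, adjusted p = 0.0107 by limma) and in BPS2 (-0.45 ± 0.10, adjusted p = 0.0493 by limma). Neither of the 2 editing enzyme genes tested passed. Schwann and glial markers summed to 169 to 234 over the 12 libraries and none of the 5 tested passed. Mesenchymal neuroblastoma markers summed to 6464 to 6892 in control, 6451 to 7990 in BPS1 and 6938 to 7609 in BPS2. Of 9 tested, 2 were higher and 1 lower in BPS1. In BPS2 1 was higher, the collagen gene COL1A1 (0.46 ± 0.07, adjusted p = 0.00706 by limma). No list had a test of its own, and calls of list genes were not followed under the alternative settings.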

How the data were processed

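Per the submitters' processing notes, the authors checked reads with FastQC 0.11.7 and used Salmon 0.8.2 and DESeq2 with GRCh38, at an annotation release not given in the sources used here. Each signal value that the authors deposited is a normalized count of 1 gene in 1 library, and whole reads could not be recovered from it (2 of the 59 receptor genes were in whole multiples of 1 read, within 0.001). Genes with at least 10 in at least 4 of 12 libraries were tested as log2(value + 1) in 1 limma fit of all libraries (limma 3.58.1, R 4.3.3, trended variance). On this scale the changes of low genes are understated. Values are mean ± SD, n = 4. With 4 against 4 an exact permutation test over 70 arrangements cannot go below a two-sided p of 0.0286. Over 27 such tests of the genes that passed in at least 1 comparison, the lowest adjusted exact p was 0.0593. None was therefore below 0.05 by that test. GRIK2 in BPS2 against BPS1 had an exact p of 0.0571 before adjustment. Positions, lengths and shared 31-base words come from GENCODE release 29, the words from the longest transcript of each receptor gene. Every library was counted once.

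The genes and lists were chosen with earlier results of these data known. Genes that passed, and the 3 most abundant per transmitter, were to be given by library, and others by range. Alternatives were pseudocounts, filters, scalings, robust variance, library weights, a replicate block, fits of 2 groups and omission of each library. A GC correction and omission of control 1 with BPS1 4 were added after seeing the data. Some receptor genes are counted but not reported here by name.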

Additional observations from a re-analysis of the deposited data

Results flagged for a closer look

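In 45 groups of 4 libraries examined (15 receptor genes taken by the rule for named genes, in 3 groups each), 2 had 1 library far from the other 3. CHRNA3 was lowest in BPS1 1, at 14912 beside 15995 to 16204 in the other BPS1 libraries. CHRNA7 was highest in BPS2 4, at 3059 beside 2810 to 2851. Chance gives such a gap in about 1 of 20 groups.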

How the results depend on the processing

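Single genes were followed under the alternatives only if they passed in at least 1 comparison, with CHRNB1, GRIN2C and CHRNB4 added in BPS1 against control. Over these 717 values none changed direction, 59 lost a call and 30 gained one. Robust variance, the block, a fit of the 2 groups alone and omission of a library outside the comparison leave a fold change as it was. In those settings an unchanged direction was fixed in advance. For BPS1 against control (8 receptor genes passed), no filter gave 4 (CHRNA10, GABRA3, GRIA2 and GRIN1), library weights 15 and a fit of the 2 groups alone 3 (CHRNA10, GRIA2 and GRIN1), and omission of 1 library gave 4 to 13. For BPS2 against control (0 passed), a minimum of 50 gave 1, quantile scaling 1, library weights 7, omission of control 1 and BPS1 4 together 4 and the GC correction 2, and omission of 1 library gave 0 to 2. For BPS2 against BPS1 (3 passed), no filter gave 1, library weights 10, a fit of the 2 groups alone 1 and omission of control 1 and BPS1 4 together 9, and omission of 1 library gave 1 to 4. The cause of these differences was not tested. With the replicate number as a block, 5 receptor genes passed in BPS1 against control (CHRNA10, CHRNA3, GABRA3, GRIA2 and GRIN1), 0 in BPS2 against control and 1 in BPS2 against BPS1. Deviations from the group mean of same-numbered libraries had correlations of -0.272 to 0.103. The highest correlation between groups, 0.424, was that of BPS1 4 with control 1. With 4 libraries per group these values cannot decide whether an equal number marks anything shared.

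Over all genes, 1760, 247 and 803 passed in the 3 comparisons, against 3382, 1296 and 3626 with library weights, 2772, 1923 and 3498 with control 1 and BPS1 4 left out, 1067, 118 and 447 with the block, and 907, 328 and 542 with 2 groups. GLRA4 and CHRNA10 had means below 100, and how far the estimation of reads affects genes at that level was not tested.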
